A study of Homo sapiens with 18 samples.

Results

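Iron uptake, storage and export were followed through 10 genes: TF, TFRC, TFR2 and SLC11A2 for uptake, FTH1 and FTL for storage, SLC40A1 and its inhibitor HAMP for export, and ACO1 and IREB2 for post-transcriptional control. The members were chosen by name: a row of the gene count table belonged to the set when its Ensembl identifier maps to one of the 10 symbols. All 10 members had a row among the 61806 genes of the table, and all 10 were among the 19743 genes that passed the filter on low counts. Poly(A) RNA was sequenced from HepG2, a human hepatoma cell line, and from APOA4-KO, a HepG2 line edited in APOA4 with a CRISPR-Cas9 ribonucleoprotein and picked from single colonies, so that the edited line is clonal. Each line was sampled before hypoxia (0 h), at 24 h of hypoxia (1% oxygen) and at 48 h, which made 6 groups of 3 libraries and 18 libraries in all. No cells kept outside hypoxia for 24 h or 48 h were analysed here, so hypoxia and time in culture cannot be told apart, and neither can the edit and other differences of the clone. The labels do not say whether the 3 libraries of a group came from separate cultures, so the p-values measure the spread between these libraries, which may be technical.

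Hepatocytes take up iron as iron-loaded transferrin, the plasma carrier encoded by TF, through the transferrin receptors TFRC and TFR2. SLC11A2 (DMT1) carries the released ferrous iron across membranes, and ferritin, a shell of FTH1 heavy chains and FTL light chains, stores what is not used. Ferroportin, encoded by SLC40A1, is the cell's iron exporter, and hepcidin, the liver hormone encoded by HAMP, binds it and has it degraded. The iron regulatory proteins IRP1 (ACO1) and IRP2 (IREB2) bind a hairpin called the iron-responsive element. In low iron, binding in a 5′ UTR blocks translation of ferritin and ferroportin mRNA, and binding in the 3′ UTR protects TFRC mRNA from decay. Read counts measure mRNA and not its translation, and in bulk samples fewer expressing cells and less RNA per cell cannot be told apart.

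The deposited totals ran from 76481820 to 91604947 counts per library, and every level below is in CPM, the count divided by the TMM-scaled total of its library, unless FPKM is named. APOA4, the edited gene, still gave 551 to 702 counts in every APOA4-KO library. At 0 h, before hypoxia, its level was lower by 0.23 on the log2 scale, with 7.71 CPM ± 0.688 (SD, n = 3) in APOA4-KO and 9.03 CPM ± 0.608 in HepG2 (edgeR adjusted p = 0.0404), while at 24 h and 48 h it was 7.94 and 8.21 CPM against 20.2 and 20.1 CPM. Of the hypoxia markers, CA9 had 12.1, 204 and 96.1 CPM at 0, 24 and 48 h in HepG2 and 38.4, 304 and 410 CPM in APOA4-KO. VEGFA had 49.7, 96.7 and 109 CPM in HepG2 and 59.4, 199 and 380 CPM in APOA4-KO, and EPO 5.26, 5.82 and 13.4 CPM against 8.58, 14.5 and 13.05 CPM. All 8 hepatocyte markers were present, with a summed level of 42665 to 61489 CPM. The erythroid marker ALAS2 gave at most 98 counts, whereas the sum of the erythroid list, carried by HBB and HBA1, ran from 1.10 to 379 CPM and spread widely within groups. In HepG2 at 0 h this sum ran from 1.10 to 285 CPM while TFRC ran from 295 to 309 CPM in the same 3 libraries. The sums of the other marker lists were 38.2 to 81.3 CPM for 6 leucocyte and macrophage genes, mostly CD68 and with MARCO at 0 in all libraries, 8.47 to 16.3 CPM for 5 endothelial genes, and 28.5 to 54.2 CPM for 6 fibroblast genes. The leucocyte sum was highest in APOA4-KO at 48 h (73.4 to 81.3 CPM), the group in which HAMP was highest. In that group CD68 had a mean of 69.3 CPM, CD14 4.59 CPM and PTPRC 3.99 CPM, and 3 of the 6 genes had no count. All libraries came from HepG2 or its edited clone, so the sum is not shown to come from leucocytes. A link between CD68 and HAMP was not tested.

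Hairpins of the kind that iron regulatory proteins bind were searched for in the member transcripts of GENCODE v29 (GRCh38). The search asked for a C, then 5 bases, the loop CAGTGN and 5 bases that pair with the first 5, with G to T pairs allowed, on the transcript strand only. Each window below is 27 bases, 5′ to 3′, in DNA letters, with the loop in capitals. The TFRC sites are named by their order among the matches, not among all elements that the mRNA may hold.
FTH1: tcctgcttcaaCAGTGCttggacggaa
FTL: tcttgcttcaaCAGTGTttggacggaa
SLC40A1: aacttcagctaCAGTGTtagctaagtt
TFRC site nearest the coding part: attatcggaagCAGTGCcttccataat
TFRC next site: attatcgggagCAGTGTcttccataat
TFRC next site: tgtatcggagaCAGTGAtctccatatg
TFRC last site: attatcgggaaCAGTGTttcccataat

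The FTH1 window lies at chr11:61967575-61967601 on the minus strand, the FTL window at chr19:48965336-48965362 on the plus strand, and the SLC40A1 window at chr2:189580662-189580688 on the minus strand, all in 5′ UTR exons. The 4 TFRC windows lie in the 3′ UTR on the minus strand, at chr3:196050980-196051006, chr3:196050576-196050602, chr3:196050511-196050537 and chr3:196050464-196050490. One further match lay in the 3′ UTR of 1 TF transcript, and none was found in the UTRs of SLC11A2, HAMP, TFR2, ACO1 or IREB2. Over all 19684 genes with protein-coding transcripts, 0.833% had such a match in a UTR (0.168% in a 5′ UTR and 0.666% in a 3′ UTR), against 5 of the 10 members. FTH1, FTL, SLC40A1 and TFRC are described above as targets of iron regulatory proteins, so their matches were foreseen. The share among the members is therefore not a test. The match is one of letters and pairing and was not a measurement of binding. An element with another loop or an unpaired base in its stem would be missed, so a member without a match may still carry one. The mRNAs with a match in the 5′ UTR and TFRC, with 4 in the 3′ UTR, are followed separately below.

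Compared per length, the ferritin genes and TF stood far above the other members. The group means of FPKM, which divide the count by gene length and library total, were 2611 to 5589 for FTL, 765 to 1123 for FTH1 and 297 to 555 for TF. TFRC (17.3 to 38.1 FPKM), TFR2 (18.3 to 29.2), SLC40A1 (11.4 to 28.9), SLC11A2 (5.4 to 11.5) and ACO1 (6.52 to 9.72) formed a middle range. IREB2 (2.76 to 5.60 FPKM) and HAMP (0.930 to 6.05 FPKM) were lowest. The gene lengths behind these values, recovered from counts and FPKM, were 26601 bases for TF and 17759 bases for TFRC, but 890 bases for FTL and 2931 bases for HAMP. GENCODE v29 gives TFRC only 7887 exon bases, while the lengths of the other members were within a few percent of it, so the place of TFRC among the genes depends on the annotation. Comparisons of 1 gene between groups do not depend on length. The ratio of the highest to the lowest group mean of FPKM was 6.51 for HAMP and between 1.47 and 2.53 for the other 9 members.

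**Figure D1:**
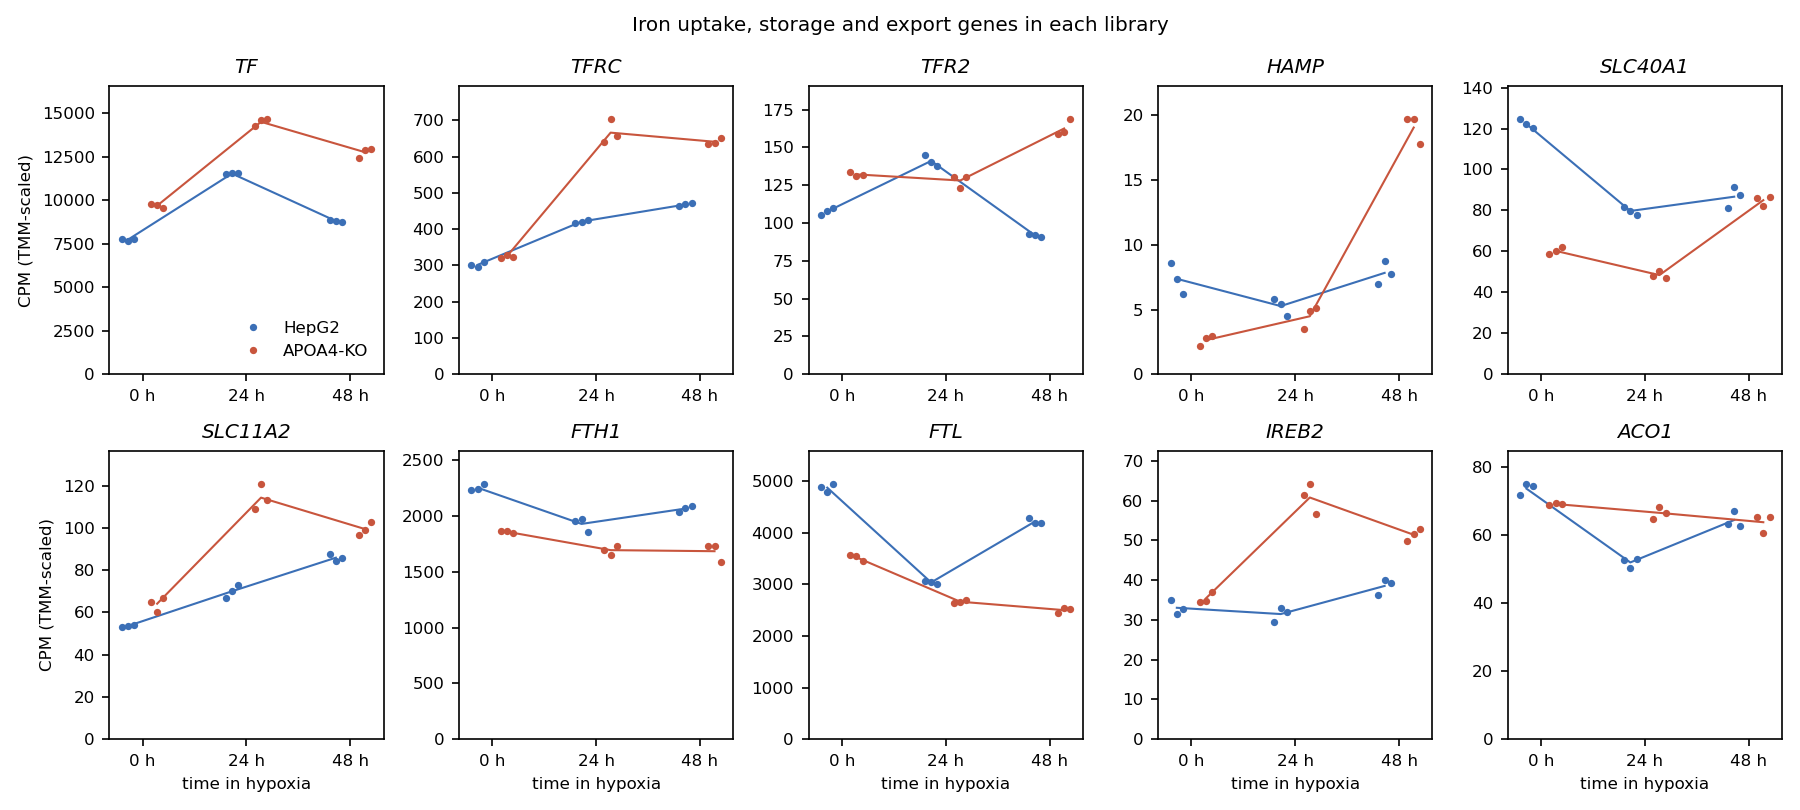
CPM of each of the 10 members (vertical axes from 0, TMM-scaled) against hours in hypoxia, with 1 point per library, HepG2 in blue and APOA4-KO in red, and lines through the group means of 3 libraries. TFRC, SLC11A2 and IREB2 stood higher in APOA4-KO at 24 h and 48 h, FTL stood lower at all 3 times, and HAMP went from the lowest group at 0 h to the highest at 48 h in APOA4-KO.

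Uptake. TF (ENSG00000091513, chr3:133745956-133796640) rose in hypoxia in both lines and was higher in APOA4-KO at each time. In HepG2 the libraries gave 7785, 7664 and 7784 CPM at 0 h, 11497, 11554 and 11577 CPM at 24 h, and 8896, 8810 and 8733 CPM at 48 h. In APOA4-KO they gave 9792, 9749 and 9547 CPM at 0 h, 14251, 14631 and 14672 CPM at 24 h, and 12458, 12919 and 12940 CPM at 48 h. No 2 groups overlapped, and the peak stood at 24 h in both lines. The change to 24 h was 0.58 ± 0.0141 (log2 fold change ± SE) in HepG2 and 0.58 ± 0.0141 in APOA4-KO, and the difference between them was 0.01 (95% interval -0.04 to 0.05, edgeR adjusted p = 0.871). At 48 h the change was 0.19 in HepG2 and 0.40 in APOA4-KO, a difference of 0.21 ± 0.0199 (edgeR adjusted p = 8.44e-08). By limma on log2(FPKM + 1) that difference was 0.038 (adjusted p = 0.155), and on log2(FPKM + 0.1) it was also 0.038 (adjusted p = 0.180). TF took between 0.783% and 1.49% of all counts in a library.

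TFRC (ENSG00000072274, chr3:196027183-196082189), the receptor for iron-loaded transferrin in most cells, rose further in APOA4-KO than in HepG2. The HepG2 libraries gave 301, 295 and 309 CPM at 0 h, 418, 419 and 426 CPM at 24 h, and 464, 468 and 472 CPM at 48 h. The APOA4-KO libraries gave 320, 330 and 324 CPM at 0 h, 639, 703 and 656 CPM at 24 h, and 636, 636 and 651 CPM at 48 h. Within HepG2 the 3 times did not overlap, whereas in APOA4-KO the 24 h and 48 h libraries shared a range, and the change between them was -0.06 ± 0.0275 on the log2 scale (edgeR adjusted p = 0.121). In FPKM, which is not TMM-scaled, these APOA4-KO libraries did not overlap, with 36.9 to 40.4 at 24 h and 33.2 to 33.9 at 48 h. The change to 24 h was 0.48 ± 0.0276 in HepG2 and 1.04 ± 0.0278 in APOA4-KO (2.05-fold), which differed by 0.56 ± 0.0389 (edgeR adjusted p = 3.52e-09). Without the second APOA4-KO library of 24 h the change in APOA4-KO was 0.997 and so fell short of a log2 fold change of 1. At 0 h the lines differed by 0.11 ± 0.0276 (edgeR adjusted p = 0.00628), and without the second HepG2 library of 0 h by 0.084 (adjusted p = 0.0521).

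The region upstream of TFRC is shown because its mRNA rose in all 4 comparisons with 0 h and hypoxia-inducible factors bind the core letters ACGTG. TF and SLC11A2 also rose in all 4. The 250 bases before the RefSeq start (GRCh38.p14, minus strand, chr3:196082091-196082340) hold the core once, read on the strand of the gene, 88 bases before the start and in capitals.
TFRC upstream: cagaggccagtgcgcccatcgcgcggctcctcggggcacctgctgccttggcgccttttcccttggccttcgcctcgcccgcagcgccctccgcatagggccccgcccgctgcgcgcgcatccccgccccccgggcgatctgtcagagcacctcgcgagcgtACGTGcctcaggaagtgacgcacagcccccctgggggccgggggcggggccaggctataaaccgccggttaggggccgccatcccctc

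Of 35116 such windows in RefSeq, 18.5% held ACGTG on either strand. Of the 8 members with a window, TFRC and FTL held it, in FTL on the opposite strand and 11 bases before the start. Any part of these letters in the level of either gene was not tested. The windows of TF, HAMP, SLC40A1, SLC11A2, IREB2 and ACO1 held no ACGTG, and FTH1 and TFR2 had no matched window. Only ACGTG was searched for. A core that begins with G in place of A was not, so these windows are not shown to lack a site.

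TFR2 (ENSG00000106327, chr7:100620416-100642779), the liver receptor that senses transferrin iron, moved in opposite directions in the lines at 48 h. HepG2 libraries had 105, 108 and 110 CPM at 0 h, 145, 140 and 138 CPM at 24 h, and 92.9, 91.9 and 90.6 CPM at 48 h. APOA4-KO libraries had 134, 131 and 132 CPM at 0 h, 131, 123 and 130 CPM at 24 h, and 159, 160 and 169 CPM at 48 h. HepG2 thus had its highest TFR2 level at 24 h and APOA4-KO at 48 h. The change to 48 h was -0.23 ± 0.0311 in HepG2 and 0.30 ± 0.0310 in APOA4-KO, and the difference was 0.53 ± 0.0440 (edgeR adjusted p = 1.58e-08). At 24 h the difference in change was -0.43 ± 0.0439 (edgeR adjusted p = 3.26e-07). Between the lines TFR2 was higher in APOA4-KO at 0 h (0.30) and 48 h (0.82) and lower at 24 h (-0.14 ± 0.0310, edgeR adjusted p = 0.000925), and with library size alone the 24 h value was -0.073 (adjusted p = 0.0553).

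The ratio of TFRC counts to TFR2 counts within a library needs no scaling between libraries. At 0 h it was 2.80 ± 0.0719 (SD, n = 3) in HepG2 and 2.46 ± 0.0646 in APOA4-KO. At 24 h it was 2.99 ± 0.102 in HepG2 and 5.21 ± 0.430 in APOA4-KO, and at 48 h the values were 5.10 ± 0.107 and 3.95 ± 0.0765. HepG2 thus had the higher ratio at 0 h and 48 h and APOA4-KO at 24 h, and the libraries of the lines did not overlap at any time.

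SLC11A2 (ENSG00000110911, chr12:50979401-51028566), the ferrous iron transporter, rose in both lines. In the HepG2 cells it stood at 53.2, 53.7 and 53.8 CPM at 0 h, 66.9, 70.2 and 72.9 CPM at 24 h, and 87.7, 84.4 and 85.7 CPM at 48 h. In the APOA4-KO cells it stood at 65.0, 60.4 and 67.0 CPM at 0 h, 109, 121 and 113 CPM at 24 h, and 96.8, 99.1 and 103 CPM at 48 h. HepG2 rose from each time to the next, while APOA4-KO had its peak at 24 h. The change to 24 h was larger in APOA4-KO by 0.45 ± 0.0625 (edgeR adjusted p = 1.48e-05), and the change to 48 h differed by -0.05 (95% interval -0.18 to 0.08, edgeR adjusted p = 0.625). At 48 h SLC11A2 was 0.21 ± 0.0440 higher in APOA4-KO (edgeR adjusted p = 0.00046), but with library size alone the value was 0.062 (adjusted p = 0.257). By limma the value was 0.056 on log2(FPKM + 1) (adjusted p = 0.263) and 0.062 on log2(FPKM + 0.1) (adjusted p = 0.266).

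Storage. FTL (ENSG00000087086, chr19:48965301-48966878), the ferritin light chain, fell in hypoxia in both lines and was lower in APOA4-KO at each time. In HepG2 the libraries gave 4885, 4794 and 4946 CPM at 0 h, 3068, 3038 and 3006 CPM at 24 h, and 4278, 4192 and 4186 CPM at 48 h. In APOA4-KO they gave 3576, 3553 and 3446 CPM at 0 h, 2639, 2654 and 2698 CPM at 24 h, and 2438, 2537 and 2525 CPM at 48 h. No 2 groups overlapped. HepG2 was lowest at 24 h and stood higher again at 48 h by 0.47 ± 0.0171 (edgeR adjusted p = 3.47e-13), whereas APOA4-KO fell by a further 0.09 from 24 h to 48 h (edgeR adjusted p = 0.000227). The line difference was -0.47 ± 0.0171 before hypoxia, -0.19 ± 0.0171 after 24 h and -0.75 ± 0.0172 after 48 h, the last a 1.69-fold lower level (edgeR adjusted p = 4.32e-17). The fall to 24 h was smaller in APOA4-KO than in HepG2, with a difference of 0.28 ± 0.0241 (edgeR adjusted p = 5.06e-08), and the fall to 48 h was larger, with a difference of -0.29 ± 0.0241 (edgeR adjusted p = 1.76e-08).

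FTH1 (ENSG00000167996, chr11:61959718-61967660), the heavy chain that oxidises iron for storage, was lower in the same 7 comparisons as FTL. Levels in HepG2 were 2231, 2243 and 2287 CPM at 0 h, 1952, 1974 and 1861 CPM at 24 h, and 2036, 2075 and 2089 CPM at 48 h. Levels in APOA4-KO were 1869, 1865 and 1844 CPM at 0 h, 1698, 1654 and 1730 CPM at 24 h, and 1733, 1729 and 1591 CPM at 48 h. The change to 24 h was -0.22 ± 0.0274 in HepG2 and -0.13 ± 0.0274 in APOA4-KO, and to 48 h -0.13 and -0.14, and all 4 passed the test (edgeR adjusted p between 3.22e-06 and 0.00174). The difference between the lines was -0.28 before hypoxia, -0.19 after 24 h and -0.30 ± 0.0274 after 48 h (edgeR adjusted p = 2.66e-08 for the last). Their changes from 0 h differed by 0.09 (95% interval 0.01 to 0.17) at 24 h and -0.02 (-0.10 to 0.06) at 48 h, with edgeR adjusted p of 0.0902 and 0.794.

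In 2 libraries the low FTH1 values went with high counts of BEST1, a chloride channel gene of the opposite strand whose exons cover 62.4% of the FTH1 exon bases in GENCODE v29. BEST1 had 8261 counts in the third HepG2 library of 24 h and 10233 in the third APOA4-KO library of 48 h, against 26 to 138 counts in the other 16 libraries. These were 5.10% and 8.21% of the summed FTH1 and BEST1 counts, against at most 0.105% elsewhere. The labels describe a second strand made with dUTP and the study's methods name another library kit, so it is not settled whether strand was kept, and the sources used here do not say whether it was counted. With BEST1 counts added to FTH1, an alternative chosen after the values were seen, the SE fell from 0.0274 to 0.0150. The FTH1 change to 24 h then differed between lines by 0.065 (edgeR adjusted p = 0.0229), and that to 48 h by 0.023 (adjusted p = 0.452). Counts assigned to 25 FTH1 pseudogenes were 0.458% to 0.634% of the FTH1 total with copies, and those of 16 FTL pseudogenes 0.0657% to 0.106%.

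**Figure D2:**
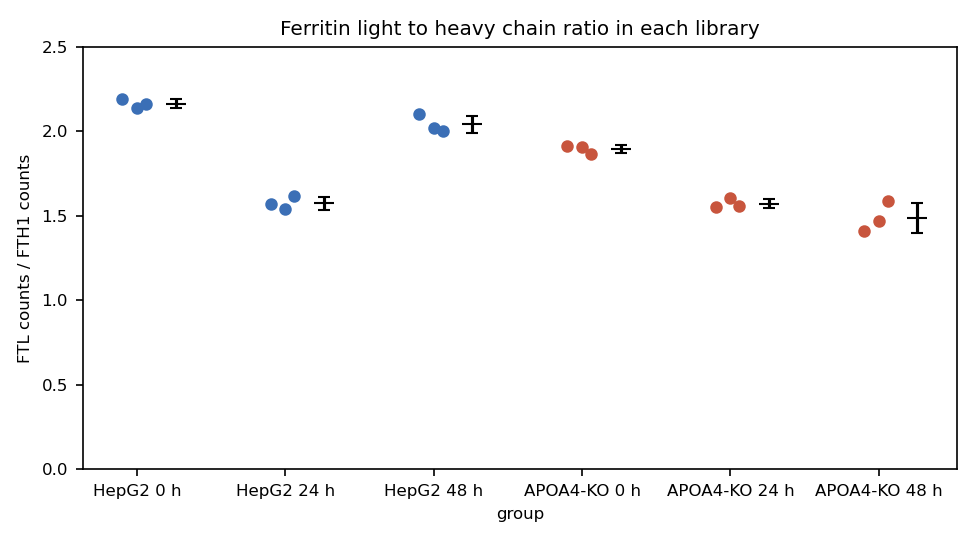
Ratio of FTL counts to FTH1 counts (vertical axis from 0) in each library by group, with black bars for the mean and SD of 3 libraries. From 0 h to 48 h the means were 2.16, 1.58 and 2.04 in HepG2 and 1.90, 1.57 and 1.49 in APOA4-KO.

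The balance of the ferritin chains moved with these changes. The ratio of FTL to FTH1 counts in HepG2 was 2.16 ± 0.0264 (SD, n = 3) before hypoxia, 1.58 ± 0.0384 after 24 h and 2.04 ± 0.0521 after 48 h. In APOA4-KO it went from 1.90 ± 0.0239 over 1.57 ± 0.0278 to 1.49 ± 0.0912. The lines did not overlap at 0 h or at 48 h and shared a range at 24 h. With BEST1 counts added to FTH1 the APOA4-KO ratio at 48 h was 1.44 ± 0.0321. The ratio of FTL to TFRC counts, storage against uptake, was 16.2 ± 0.129 in HepG2 before hypoxia and 7.22 ± 0.149 and 9.02 ± 0.184 after 24 h and 48 h. In APOA4-KO the 3 values were 10.9 ± 0.292, 4.01 ± 0.201 and 3.90 ± 0.0774. These ratios compare libraries and not the amounts of the chains, since the lengths of the genes differ.

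Export. HAMP (ENSG00000105697, chr19:35280716-35285143), the hepcidin gene, had the widest range of the members. The HepG2 libraries gave 8.56, 7.34 and 6.21 CPM at 0 h, 5.84, 5.43 and 4.51 CPM at 24 h, and 6.98, 8.77 and 7.73 CPM at 48 h. The APOA4-KO libraries gave 2.17, 2.80 and 2.93 CPM at 0 h, 3.49, 4.87 and 5.08 CPM at 24 h, and 19.7, 19.7 and 17.8 CPM at 48 h. APOA4-KO was the lowest group at 0 h and the highest at 48 h, and at 24 h the lines overlapped. The counts behind these values were 172 to 255 in APOA4-KO at 0 h and 1277 to 1494 at 48 h.

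HAMP was lower in APOA4-KO at 0 h by 1.48 ± 0.160 on the log2 scale (2.79-fold, edgeR adjusted p = 7.7e-07). At 48 h it was higher by 1.28 ± 0.154 (2.43-fold, edgeR adjusted p = 8.25e-07). The rise from 0 h to 48 h in APOA4-KO was 2.85 ± 0.165, or 7.22-fold (edgeR adjusted p = 3.19e-11), and most of it came between 24 h and 48 h (2.09 ± 0.159). In HepG2 the change to 48 h was 0.09 (95% interval -0.24 to 0.41, edgeR adjusted p = 0.77). The change in APOA4-KO minus that in HepG2 was 1.25 ± 0.223 at 24 h (edgeR adjusted p = 0.000204), when HAMP rose by 0.76 in APOA4-KO, and 2.77 ± 0.222 at 48 h (edgeR adjusted p = 9.64e-09). The fall of 0.49 in HepG2 at 24 h passed the test (edgeR adjusted p = 0.0229) but not without the first (adjusted p = 0.14) or second (adjusted p = 0.0525) HepG2 library of 0 h, nor without the third of 24 h (adjusted p = 0.114).

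SLC40A1 (ENSG00000138449, chr2:189560579-189583758), the ferroportin gene, was 2.03-fold lower in APOA4-KO at 0 h and did not pass the test of the lines at 48 h. HepG2 libraries had 125, 122 and 120 CPM at 0 h, 81.6, 79.8 and 77.8 CPM at 24 h, and 81.1, 91.3 and 87.7 CPM at 48 h. APOA4-KO libraries had 58.5, 60.2 and 62.1 CPM at 0 h, 47.9, 50.4 and 47.0 CPM at 24 h, and 86.2, 82.3 and 86.6 CPM at 48 h. HepG2 fell in hypoxia at both times, while APOA4-KO was lowest at 24 h and highest at 48 h. The line difference was -1.02 ± 0.0421 at 0 h (edgeR adjusted p = 1.27e-12), -0.72 ± 0.0422 at 24 h and -0.03 (95% interval -0.12 to 0.06, edgeR adjusted p = 0.621) at 48 h.

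The 48 h value of SLC40A1 depends on the scaling, being 0.023 with the size factors of DESeq2 and -0.178 with library size alone (adjusted p = 0.00204). The change to 48 h was -0.50 ± 0.0416 in HepG2 and 0.50 ± 0.0419 in APOA4-KO, so that the lines differed by 0.99 ± 0.0591 (edgeR adjusted p = 1.56e-10). From 24 h to 48 h in APOA4-KO, SLC40A1 rose by 0.81 ± 0.0422 and HAMP, which acts against the exporter, rose as well.

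Control. IREB2 (ENSG00000136381, chr15:78437431-78501456), which encodes IRP2, rose in hypoxia mainly in APOA4-KO. In the HepG2 cells it stood at 34.9, 31.5 and 32.7 CPM at 0 h, 29.3, 33.0 and 32 CPM at 24 h, and 36.3, 39.9 and 39.3 CPM at 48 h. In the APOA4-KO cells it stood at 34.5, 34.8 and 37.0 CPM at 0 h, 61.5, 64.2 and 56.7 CPM at 24 h, and 49.7, 51.7 and 52.8 CPM at 48 h. At 0 h the lines overlapped, and at 24 h and 48 h every APOA4-KO library was above every HepG2 library. The change to 24 h was 0.78 ± 0.0570 in APOA4-KO and -0.07 ± 0.0573 in HepG2, a difference of 0.85 ± 0.0807 (edgeR adjusted p = 1.55e-07). The change to 48 h differed by 0.32 ± 0.0806 (edgeR adjusted p = 0.0042), and with library size alone by 0.143 (adjusted p = 0.201). By limma it differed by 0.118 on log2(FPKM + 1) (adjusted p = 0.221) and by 0.140 on log2(FPKM + 0.1) (adjusted p = 0.238).

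ACO1 (ENSG00000122729, chr9:32384603-32454769), which encodes IRP1, the cytosolic aconitase when it holds an iron-sulfur cluster, fell in HepG2. Levels in HepG2 were 71.5, 74.9 and 74.2 CPM at 0 h, 52.6, 50.2 and 52.9 CPM at 24 h, and 63.3, 67.0 and 62.7 CPM at 48 h. Levels in APOA4-KO were 68.7, 69.3 and 69.1 CPM at 0 h, 64.7, 68.1 and 66.5 CPM at 24 h, and 65.2, 60.5 and 65.3 CPM at 48 h. HepG2 at 24 h stood below all other groups. The change to 24 h was -0.50 ± 0.0382 in HepG2 (edgeR adjusted p = 6.19e-09) and -0.06 ± 0.0380 in APOA4-KO (edgeR adjusted p = 0.277), a difference of 0.45 ± 0.0539 (edgeR adjusted p = 2.6e-06). At 48 h in APOA4-KO the change was -0.12 ± 0.0381 (edgeR adjusted p = 0.016), and it missed the threshold in 7 of 15 alternatives. These were DESeq2 and its size factors (adjusted p = 0.0502), only the groups compared (0.104), and leaving out any library of 0 h (0.0670 to 0.0894) or the second of 48 h (0.107).

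The order of the 6 groups differed by member. TF and FTL had all 5 neighbouring pairs apart by edgeR (adjusted p under 0.05), and so did SLC11A2. The pairs that did not differ beyond their spread were APOA4-KO at 24 h and 48 h for TFRC and FTH1, and APOA4-KO at 0 h and 24 h for TFR2. For HAMP they were HepG2 at 48 h and 0 h, and both lines at 24 h. SLC40A1 at 48 h did not differ between the lines, nor between APOA4-KO at 48 h and HepG2 at 24 h, and FTH1 not between HepG2 at 24 h and APOA4-KO at 0 h. In IREB2 the 3 lowest pairs and in ACO1 the 4 highest pairs did not differ. In FPKM, the APOA4-KO libraries of 24 h and 48 h did not overlap for TFRC or for FTH1. For FTH1 these were 825 to 851 FPKM at 24 h and 719 to 792 FPKM at 48 h. The TFR2 change from 0 h to 24 h in APOA4-KO passed by limma. It was -0.071 on log2(FPKM + 1) (adjusted p = 0.0374) and -0.073 on log2(FPKM + 0.1) (adjusted p = 0.0397). The comparison of 48 h with 24 h was not run under the alternatives.

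How the lines compare was asked first at each time. The shares of all genes given here and below were not matched for count level. All members but HAMP had at least 2259 counts in every library. A higher share among the members is therefore not shown to be particular to iron genes. At 0 h 8 of 10 members passed the test, 4 higher (TF, TFRC, TFR2, SLC11A2) and 4 lower (HAMP, SLC40A1, FTH1, FTL) in APOA4-KO, against 30.5% of all genes tested. At 24 h 9 passed, 5 higher and 4 lower, against 48.1%, with HAMP the exception (-0.23, 95% interval -0.56 to 0.10, edgeR adjusted p = 0.249). At 48 h 8 passed, 6 higher and 2 lower (FTH1, FTL), against 50.8%, and SLC40A1 and ACO1 did not. With a log2 fold change of at least 1 as a further limit, HAMP and SLC40A1 remained at 0 h (4.31% of all genes), none at 24 h (7.77%) and HAMP at 48 h (13.6%). By limma on log2(FPKM + 1), which compresses low levels, HAMP passed the test but not that limit, at -0.88 at 0 h and 0.91 at 48 h. SLC40A1 at 0 h lay at that limit, with values from -1.05 to -0.950 over the alternatives. The median log2 fold change over the 10 members was 0.00, 0.10 and 0.31 at 0 h, 24 h and 48 h, and over all genes tested -0.01, 0.01 and -0.04.

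**Figure D3:**
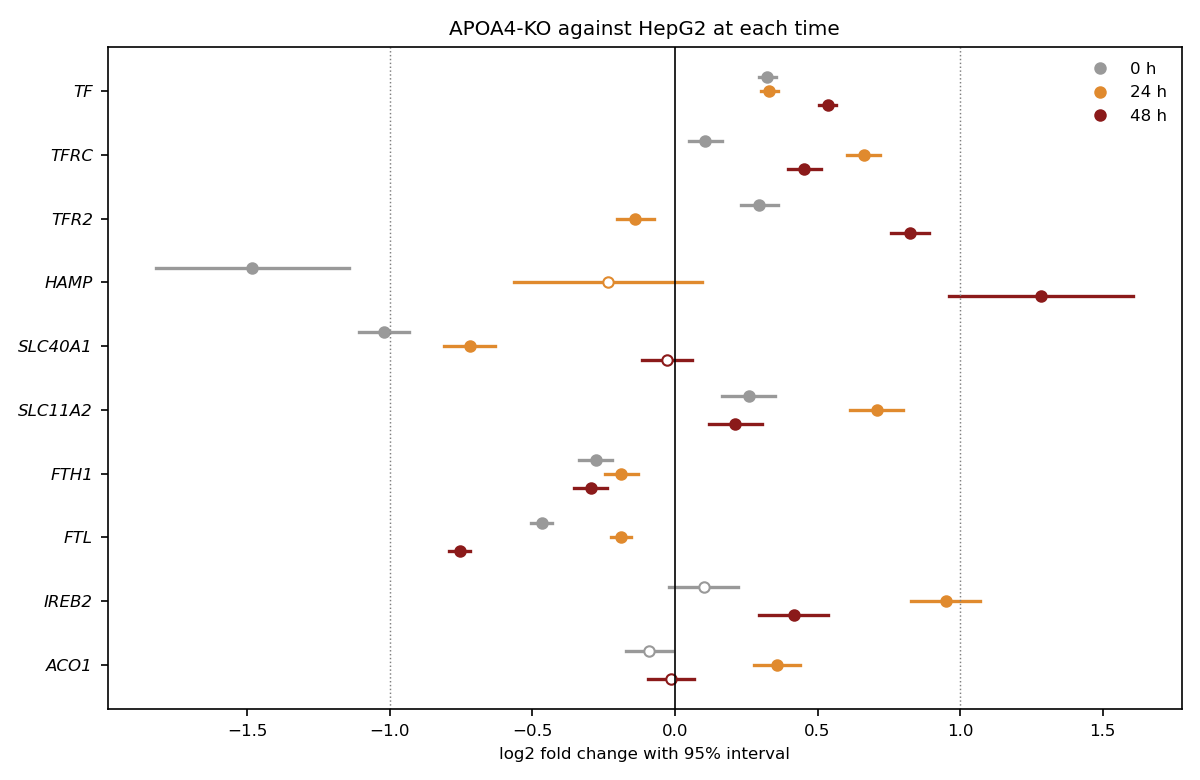
Log2 fold change of APOA4-KO against HepG2 (horizontal axis) for the 10 members at 0 h in grey, 24 h in orange and 48 h in dark red, with 95% intervals, filled points for an edgeR adjusted p under 0.05 and dotted lines at -1 and 1. HAMP went from -1.48 at 0 h to 1.28 at 48 h and SLC40A1 from -1.02 to -0.03, while FTL was below 0 at all 3 times.

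How each line changed in hypoxia was asked next. In HepG2 9 of 10 members passed at 24 h, 4 higher and 5 lower, against 29.6% of all genes, and 9 at 48 h, 4 higher and 5 lower, against 27.7%. None of these reached a log2 fold change of 1, which 3.08% and 2.18% of all genes did with an adjusted p under 0.05. In APOA4-KO 8 passed at 24 h, 5 higher and 3 lower, against 44.4%, and all 10 at 48 h, 7 higher and 3 lower (FTH1, FTL and ACO1), against 49.9%. TFRC at 24 h and HAMP at 48 h reached the further limit, as did 5.88% and 12.2% of all genes. TF, TFRC and SLC11A2 rose and FTH1 and FTL fell in all 4 comparisons. The share of all genes that passed in the same direction in all 4 was not counted. Such agreement is therefore not shown to be particular to the members. The 2 comparisons of a line share their 0 h libraries.

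**Figure D4:**
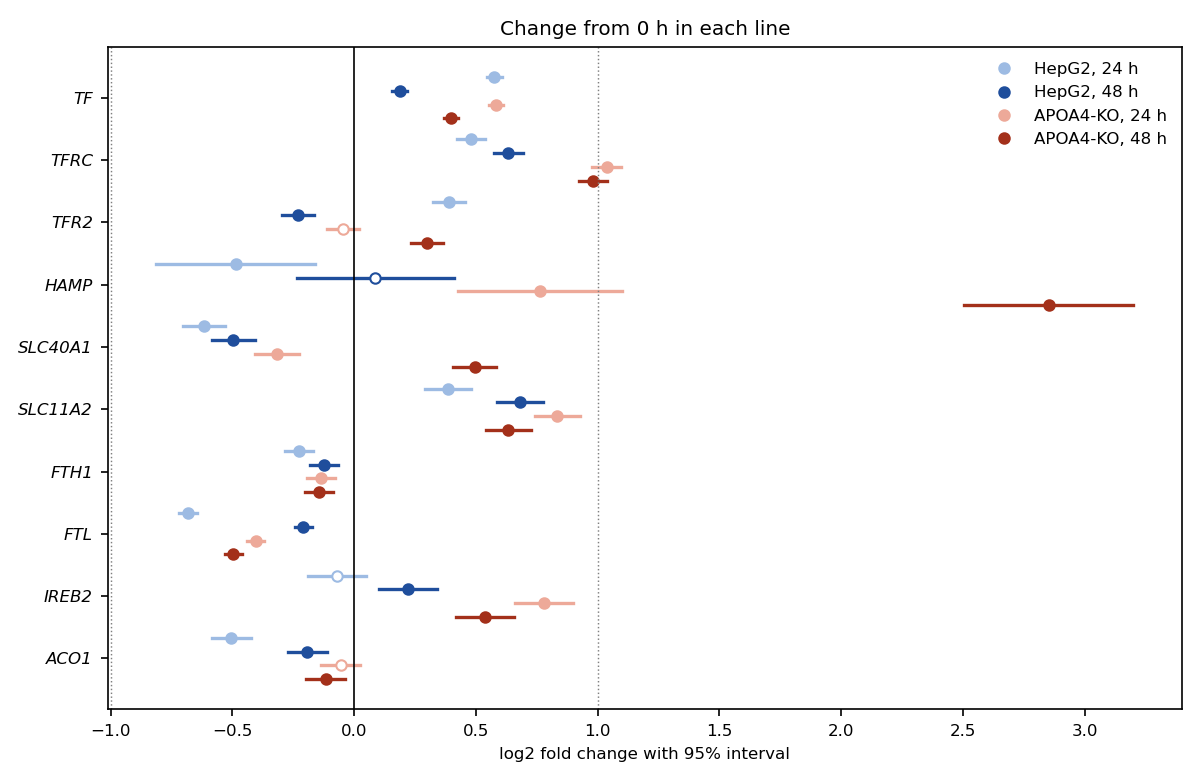
Log2 fold change from 0 h (horizontal axis) for the 10 members, HepG2 in light (24 h) and dark (48 h) blue and APOA4-KO in light (24 h) and dark (48 h) red, with 95% intervals and filled points for an edgeR adjusted p under 0.05. TFRC lay between 0.48 and 1.04, FTL between -0.68 and -0.21, and HAMP in APOA4-KO at 48 h at 2.85.

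Whether the lines changed differently was tested as the change in APOA4-KO minus that in HepG2. At 24 h 8 members differed, 7 with a higher value in APOA4-KO and TFR2 with a lower one, against 32.2% of all genes. At 48 h 7 differed, 6 higher and FTL lower, against 36.4%. HAMP alone of the members passed a log2 difference of 1, at both times, where 2.59% and 7.42% of all genes did, and SLC40A1 lay just under it at 48 h (0.99). By limma on log2(FPKM + 1) the HAMP value at 24 h was 0.78. TF and FTH1 did not pass at 24 h, and SLC11A2, FTH1 and ACO1 did not at 48 h. With library size alone TF passed at 24 h (adjusted p = 0.00869). FTH1 passed in 6 of 23 alternatives: library size alone, limma on FPKM at both pseudocounts, only the groups compared, without the second HepG2 library of 0 h (adjusted p between 0.0133 and 0.0488), and with BEST1 added.

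The pathway around the members was described by 5 lists of 102 genes, of which 98 were tested. In the list of hepcidin control, 20 of 21 genes were tested. APOA4-KO differed from HepG2 in 10 genes at 0 h (2 higher, 8 lower), 16 at 24 h (12 higher, 4 lower) and 14 at 48 h (8 higher, 6 lower), against 30.5%, 48.1% and 50.8% of all genes, with medians of -0.08, 0.25 and 0.23. From 0 h to 48 h 12 genes rose and 1 fell in APOA4-KO (49.9% of all genes passed), while 5 rose and 3 fell in HepG2 (27.7%). ATOH8, a transcription factor that raises hepcidin expression, was lower in APOA4-KO by 1.43 ± 0.0668 at 0 h and by 2.62 ± 0.0710 at 24 h (edgeR adjusted p = 1.2e-15), with group means of 5.09 CPM against 31.3 CPM at 24 h. CEBPA, another activator of HAMP, was lower by 1.46 ± 0.0449 at 48 h, the time at which HAMP itself was higher.

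ID1, a target of BMP signalling as HAMP is, rose in APOA4-KO by 1.44 ± 0.0273 to 48 h (edgeR adjusted p = 2.7e-18), from 262 to 710 CPM, and in HepG2 by 0.48 ± 0.0268. BMP6, the ligand by which liver endothelium signals iron load, was 2.58 ± 0.592 higher in APOA4-KO at 48 h (edgeR adjusted p = 0.00112), but at means of only 1.27 against 0.212 CPM. SMAD7, an inhibitor of that pathway, rose in APOA4-KO by 0.76 to 24 h and 1.14 to 48 h, and these changes differed from those in HepG2 by 0.86 and 1.02 ± 0.109. IL6R, the receptor through which inflammation induces hepcidin, rose by 0.91 in APOA4-KO and fell by 0.33 in HepG2 to 48 h, a difference of 1.23 ± 0.0902 (edgeR adjusted p = 2.63e-09), with means of 43.3 CPM in APOA4-KO and 15.9 CPM in HepG2. SMAD6 rose by 0.47 in HepG2 at 24 h.

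In the list of iron reduction, other uptake and export, 16 of 18 genes were tested. APOA4-KO differed in 8 genes at 0 h (5 higher, 3 lower), 9 at 24 h (4 higher, 5 lower) and 10 at 48 h (7 higher, 3 lower), where 30.5%, 48.1% and 50.8% of all genes did. CP, the ferroxidase ceruloplasmin that loads exported iron onto transferrin, rose in all 4 comparisons with 0 h: by 1.95 ± 0.0287 and 1.08 in HepG2 and by 1.22 and 1.20 in APOA4-KO. Its means in HepG2 were 250 CPM at 0 h and 964 CPM at 24 h, and the change to 24 h was smaller in APOA4-KO by 0.73 (edgeR adjusted p = 1.19e-10), whose 0 h level was 516 CPM. STEAP3, the endosomal reductase that acts before SLC11A2, was lower in APOA4-KO by 1.15 ± 0.0351 at 24 h (edgeR adjusted p = 6.16e-15). The reductases CYBRD1 and STEAP2 were higher in APOA4-KO at 0 h by 1.28 and 1.20 and at 48 h by 1.18 and 1.41, with all group means under 4 CPM.

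Other genes of that list were named at lower levels. LRP2, the endocytic receptor megalin, rose to 24 h by 1.45 in HepG2 and 1.11 in APOA4-KO, at group means of at most 1.52 CPM. The second of these was lost without the third APOA4-KO library of 0 h (adjusted p = 0.111) or the first of 24 h (0.0904). It was also lost by limma on log2(FPKM + 1) (adjusted p = 0.114) and on log2(FPKM + 0.1) (0.0744). LRP1, a haem-haemopexin receptor of over 1000 CPM, rose by 0.49 in APOA4-KO and fell by 0.10 in HepG2 to 48 h, a difference of 0.59. MCOLN1, a lysosomal iron channel, fell by 0.53 in HepG2 at 48 h. SLC22A17, a lipocalin receptor, fell by 0.90 to 24 h in APOA4-KO against a change of 0.19 in HepG2, a difference of -1.10 ± 0.283 (edgeR adjusted p = 0.00519). SLC39A8, a metal importer at means of at most 1.48 CPM, fell by 1.25 to 48 h in APOA4-KO (edgeR adjusted p = 0.0251), and missed the threshold without the second library of 0 h (adjusted p = 0.116) or the first (0.0965) or second (0.0888) of 48 h.

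In the list of ferritin turnover and control of iron regulatory proteins, 11 of 12 genes were tested and none reached a log2 fold change of 1 in any comparison. APOA4-KO differed in 5 genes at 0 h (2 higher, 3 lower), 7 at 24 h (4 higher, 3 lower) and 9 at 48 h (5 higher, 4 lower), where 30.5%, 48.1% and 50.8% of all genes did. PCBP1 and PCBP2, chaperones that hand iron to ferritin, rose by 0.58 and 0.47 to 48 h in APOA4-KO and fell by 0.08 and 0.13 in HepG2, differences of 0.66 ± 0.0306 and 0.60 ± 0.0278, while FTH1 and FTL fell in both lines. PCBP1 was 0.34 lower in APOA4-KO at 0 h. NCOA4, the receptor that takes ferritin to the lysosome, rose by 0.37 ± 0.0226 to 48 h in HepG2, and TAX1BP1, which works with it, by 0.45 and 0.49 to 24 h and 48 h in APOA4-KO. FBXL5, the ligase subunit that has IRP2 degraded, was 0.52 ± 0.0838 lower in APOA4-KO at 48 h (edgeR adjusted p = 3.44e-05), when IREB2 was 0.42 ± 0.0569 higher. FBXL5 acts on IRP2 protein, which was not measured, and a link to the IREB2 mRNA was not tested. CUL1, the scaffold of that ligase, was 0.67 higher in APOA4-KO at 24 h, when IREB2 was 0.95 higher. GLRX3, a glutaredoxin that handles iron-sulfur clusters, was 0.23 higher in APOA4-KO at 0 h and rose by 0.44 in HepG2 at 24 h.

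In the list of haem synthesis, breakdown and transport, all 22 genes were tested and most that passed were lower. APOA4-KO differed in 18 genes at 0 h (5 higher, 13 lower), 19 at 24 h (8 higher, 11 lower) and 18 at 48 h (4 higher, 14 lower), where 30.5%, 48.1% and 50.8% of all genes did, with medians of -0.22, -0.28 and -0.28. SLC48A1, which carries haem out of the lysosome, was lower in APOA4-KO by 1.89 ± 0.0711, 2.04 ± 0.0748 and 2.19 ± 0.0739 at the 3 times, and fell from 65.0 to 25.1 CPM in HepG2 and from 17.5 to 6.10 CPM in APOA4-KO from 0 h to 24 h. HMOX1, the haem oxygenase that frees iron from haem, was lower by 1.49 ± 0.0415 at 48 h (26 against 72.9 CPM, edgeR adjusted p = 7.25e-16). Its means were 47.9 CPM in APOA4-KO and 64.5 CPM in HepG2 at 0 h, but 54.0 and 45.1 CPM at 24 h. BACH1, the haem-sensing repressor of HMOX1 and of ferritin genes, rose in APOA4-KO by 1.12 ± 0.0494 at 24 h and 1.87 ± 0.050 at 48 h, from 20.1 to 73.2 CPM, and in HepG2 by 0.67 at 48 h.

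HPX, the plasma haem carrier haemopexin, fell in HepG2 by 1.31 ± 0.0718 at 24 h. The change differed between the lines by 1.58 ± 0.101 (edgeR adjusted p = 1.01e-09), with means of 17.8 CPM in HepG2 and 29.5 CPM in APOA4-KO at that time. Before hypoxia HPX was lower in APOA4-KO by 0.85 ± 0.0707 (edgeR adjusted p = 2.26e-08), with means of 24.39 CPM against 44.06 CPM in HepG2. Its means at 48 h were 13.97 CPM in APOA4-KO and 35.96 CPM in HepG2. UROS, an enzyme of haem synthesis, fell by 1.16 ± 0.0813 to 48 h in APOA4-KO, from 18.1 to 8.09 CPM, and was 22.1 and 21.8 CPM in HepG2 at 0 h and 48 h.

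In the list of iron-sulfur clusters and mitochondrial iron, all 29 genes were tested. APOA4-KO differed in 11 genes at 0 h (2 higher, 9 lower), 22 at 24 h (6 higher, 16 lower) and 21 at 48 h (6 higher, 15 lower), where 30.5%, 48.1% and 50.8% of all genes did. In hypoxia the 15 genes that passed by 24 h in HepG2 (29.6% of all genes) all fell, while 14 did not pass, and 20 fell and 5 rose in APOA4-KO (44.4%), with medians of -0.16 and -0.33 against -0.03 and -0.01 over all genes. FDXR, the reductase that feeds electrons to cluster assembly, was lower in APOA4-KO by 1.03 ± 0.0271, 1.16 ± 0.0275 and 1.68 ± 0.0277 at the 3 times, and its mean fell from 391 to 159 CPM in HepG2 by 24 h. NDOR1, a reductase of cytosolic cluster assembly, was lower by 1.6 ± 0.0965 at 48 h and ABCB8, a mitochondrial transporter, by 1.09 ± 0.0588 at 24 h. NFU1 rose by 0.27 in HepG2 at 48 h (edgeR adjusted p = 0.0153), which was lost without the third HepG2 library of 0 h (adjusted p = 0.0792). CIAO3 and SLC25A28 fell by 0.90 and 0.62 to 24 h in APOA4-KO, against changes of -0.10 and 0.14 in HepG2 (differences of -0.80 and -0.76).

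**Figure D5:**
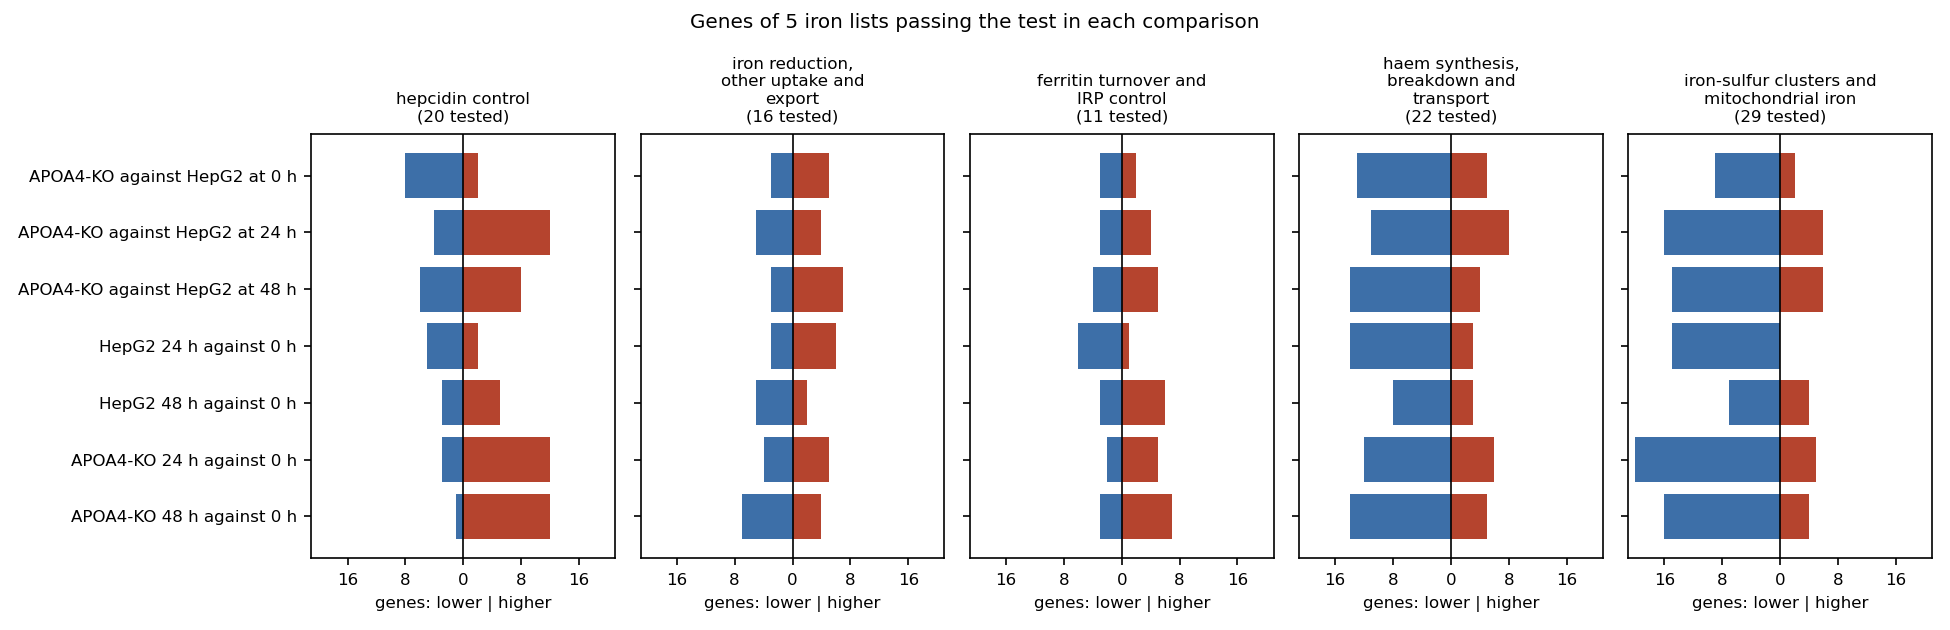
Numbers of genes of the 5 lists with an edgeR adjusted p under 0.05 (horizontal axes), lower to the left in blue and higher to the right in red, for the 3 comparisons of the lines and the 4 changes from 0 h. All 15 genes of the iron-sulfur list that passed in HepG2 at 24 h were lower, and the hepcidin list 12 higher and 1 lower in APOA4-KO at 48 h.

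For each member the genes with the most similar profile were taken by Pearson correlation of log2 CPM over the 18 libraries, among 12681 named genes with a mean of at least 1 CPM. The libraries share 6 groups, so the r values describe mostly the group means. TF was closest to HSP90B1 (r = 0.990), a chaperone of the endoplasmic reticulum, and C8B (0.985), a liver complement gene. TFRC was closest to TCAF2 (0.995) and to ERO1A (0.994), an oxidase of the endoplasmic reticulum. The leading genes were DEPP1 (0.984) and CLSTN1 (0.980) for TFR2, GBE1 (0.985) and PAICS (0.984) for SLC11A2, ANXA9 (0.989) and DGAT2 (0.988) for FTL, and ABHD12 (0.973) and TCTA (0.966) for FTH1. They were ZNF703 (0.969) and CES1 (0.958) for SLC40A1, NF1 (0.984) and USP9X (0.980) for IREB2, IVNS1ABP (0.960) and OSGIN1 (0.952) for HAMP, and HTT (0.924) and SYNE1 (0.916) for ACO1. No member was among the 2 genes most like another member.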

How the data were processed

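Poly(A) RNA of HepG2 and APOA4-KO cells was sequenced in 18 libraries, 3 for each line and time. The authors trimmed reads with fastp v0.23.1 and used HISAT2 v2.1.0 for alignment to Ensembl GRCh38.p13. The paper names featureCounts of subread v2.0.2 for counting, whereas the submitters' processing notes list StringTie, so how the deposited counts were made is not settled. Counts of 4 were 2.66 to 3.12 times as frequent as their neighbours in every library, so a count need not be 1 read pair. The deposited counts are whole numbers without normalization, for 61806 genes. The deposited FPKM values, for 33601 genes, divide the counts by a fixed gene length and the library total.

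Counts were tested with the edgeR 4.0.16 quasi-likelihood test in R 4.3.3, after filterByExpr on the 6 groups (19743 genes) and TMM scaling, with 1 coefficient per group and 9 contrasts, and Benjamini-Hochberg adjustment over all genes tested. A gene passed at an adjusted p under 0.05. As a further limit, a log2 fold change of 1 or more in either direction was added. The study used that fold in DESeq2 v1.38.3 with a P value not stated to be adjusted. Alternatives used DESeq2 1.42.0, limma 3.58.1 on log2(FPKM + 1) and log2(FPKM + 0.1), other scalings, no filter, counts divided by 4, ferritin pseudogenes summed, only the groups compared, the replicate number as a block and each library left out. Same-numbered libraries did not deviate together (45 pairs, r from -0.144 to 0.0511), so no pairing was used.

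The 10 members, the 5 iron lists and the marker lists were chosen with earlier results of these data known. Named were all members, from each list and comparison up to 2 genes with the largest absolute log2 fold change among those that passed, for each member the 2 genes most like it, and APOA4, EPO, CA9 and VEGFA as checks of labels. BEST1 was named after its values were seen. One marker gene is not reported here. Symbols came from a table that named 61757 of 61806 identifiers. Positions and hairpins came from GENCODE v29, upstream windows from RefSeq, for 8 of 10 members. HAMP had the lowest counts of the members, from 172 to 1494 in a library, and the widest errors.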

Additional observations from a re-analysis of the deposited data

Results flagged for a closer look

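The results below were singled out because the lines changed differently from 0 h, by the edgeR test of the difference itself and by at least 1 on the log2 scale. Each value is the log2 change in APOA4-KO minus that in HepG2, so a negative value can be a larger fall in APOA4-KO. Among the members, HAMP met this at both times, with 1.25 ± 0.223 (SE) at 24 h and 2.77 ± 0.222 at 48 h, and all 3 APOA4-KO libraries of 48 h were above all HepG2 libraries of that time.

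Among the iron lists at 24 h, the values were -1.19 for ATOH8, -1.10 for SLC22A17 and 1.58 for HPX. At 48 h they were 1.02 for SMAD7, 1.23 for IL6R, -1.75 for SLC39A8, 1.20 for BACH1, -1.06 for HMOX1, -1.14 for UROS and -1.19 for NDOR1. SLC39A8 had 34 to 175 counts in a library and passed with an edgeR adjusted p of 0.0328, which 7 of the fits without 1 library moved over the threshold (adjusted p up to 0.103).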

How the results depend on the processing

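The numbers of members that passed were within 1.5 times of the main count under every alternative run. Without single libraries they were 7 to 8, 9 and 8 for the lines at 0 h, 24 h and 48 h, 8 to 9 and 9 for HepG2 at 24 h and 48 h, 8 and 9 to 10 for APOA4-KO, and 8 to 9 and 7 for the line difference in change. With the replicate block they were 8, 9, 8, 9, 9, 8, 10, 8 and 7 in the same order, as without it, and over all genes calls at 0 h went from 6015 to 5850. Same-numbered libraries were not shown to be paired.

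Of 1497 alternative values of the members, 1437 kept direction and side of the threshold, 20 lost the call, 21 gained one and 19 changed sign, all of the last from values that had not passed. At 48 h between the lines, SLC40A1 was 0.023 with DESeq2 size factors and with DESeq2 and 0.0088 without the second HepG2 library, and ACO1 was 0.036 in both, 0.012 with only these groups, and 0.014 and 0.020 without the second HepG2 or APOA4-KO library. HAMP in HepG2 at 48 h was -0.0078 without the third library of 0 h. The line difference of TF at 24 h was -0.033 with DESeq2 size factors and with DESeq2. At 48 h that of FTH1 was 0.0062 in both, 0.018 with only these groups, 0.022 without the third APOA4-KO library and 0.023 with BEST1 added, and that of ACO1 was -0.096 with library size alone, and -0.085 and -0.096 with limma at pseudocounts of 1 and 0.1. Without single libraries the lowest and highest values of these 4 results were -0.074 and 0.0088 for SLC40A1, -0.037 and 0.020 for ACO1, -0.0078 and 0.23 for HAMP, and -0.036 and 0.022 for FTH1. The cause was not tested.

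Library size alone moved the median of all genes at 48 h between the lines from -0.04 to -0.19, in APOA4-KO from 0 h to 48 h from -0.07 to -0.23, and in the line difference from -0.04 to -0.21, so smaller differences at 48 h depend on the scaling. SLC40A1 and ACO1 at 48 h, and SLC11A2 and FTH1 in the line difference to 48 h, passed only with library size alone or limma on FPKM. In the line difference to 24 h, TF gained a call with library size alone and FTH1 in 6 alternatives. TFR2 in APOA4-KO from 0 h to 24 h gained a call by limma on FPKM at both pseudocounts. Values of the named list genes kept their call in 1454 of 1470 alternatives and lost it in 16.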
